A study of Mus musculus with 16 samples.

Results

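The *Kcn* genes encode the pore-forming and auxiliary subunits of potassium channels, and their RNA was followed here in the ventricles of neonatal mice with and without the cardiac protein LRRC10, after a sham operation or a myocardial infarction. All protein-coding genes whose mouse GENCODE symbol begins with *Kcn* were taken from a table of 51912 gene identifiers. There were 94 such genes, and 86 of them had counts that summed to at least 10 over the 16 libraries. These 86 genes are the members described below. By symbol they fall into 37 voltage-gated alpha subunits, 13 auxiliary subunits of voltage-gated channels, 15 inward rectifiers, 9 two-pore-domain channels and 12 calcium- and sodium-activated channels.

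Potassium channels carry the outward currents that end the cardiac action potential and hold the resting potential. In the mouse ventricle, repolarization is fast and rests mainly on transient outward currents, carried by the Kv4 channels of *Kcnd2* and *Kcnd3* with their partner KChIP2 (*Kcnip2*) and, with slower recovery, by Kv1.4 (*Kcna4*). Inward rectifiers set the resting potential and couple the membrane to metabolism and to the vagus nerve, and two-pore-domain channels carry background currents.

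Total RNA was sequenced from whole ventricles, with tissue above and below the ligation, of 16 mice in 4 groups of 4. WT mice were C57BL/6J animals and KO mice carried a germline deletion of *Lrrc10* (Lrrc10-/-) on a C57BL/6 background. Mice were operated at P1 and hearts were collected 7 days later. The groups were WT after sham surgery (WT SH), KO after sham surgery (KO SH), WT after ligation of the left anterior descending artery (WT MI) and KO after that ligation (KO MI). The methods do not describe WT and KO mice as littermates, so the deletion and any other difference between the colonies cannot be told apart.

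The libraries held 33783874 to 57470159 counts. Levels are given as CPM, the counts of a gene divided by the scaled library size and set to a common total, and 3 counts, taken as the floor, correspond to 0.0577 to 0.0858 CPM. *Lrrc10* had 26.3 to 35.6 CPM in the WT libraries and 0 counts in all 8 KO libraries. The 6 cardiomyocyte markers summed to between 22699 and 36040 CPM in every library. The library KO MI replicate 2 stood apart. Its 5 atrial markers summed to 2428 CPM, against 43.9 to 857 in the others. *Nppa* alone held 2396 CPM of this, while *Myl4*, *Myl7* and *Sln* were higher in KO MI replicate 3 (66.3, 9.62 and 2.95 CPM, against 30.2, 2.09 and 0.492). *Bmp10* was under the floor in both. The *Kcn* genes of KO MI replicate 2 summed to 501 CPM, the lowest of the 16 libraries, of which the highest had 761. Skeletal muscle markers summed to 79.0 CPM in KO MI replicate 2 and 128 CPM in KO MI replicate 7, against 1.296 to 13.7 in the others. *Xist* was high in 0 of 4 WT SH libraries and in 2 of 4 of each other group, so sex is uneven between WT SH and the rest.

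A small number of *Kcn* genes made up most of the channel RNA. Of the 86 members, 36 averaged at least 1 CPM and 16 at least 10 CPM, and the 10 highest held 76.0% of the summed level. Per kilobase of exon, which allows genes to be compared, the highest means over the 16 libraries were 29.9 CPM per kb for *Kcne1*, the beta subunit of the slow delayed rectifier, 12.4 for *Kcnip2*, 11.2 for *Kcnj2*, which encodes the inward rectifier Kir2.1, and 8.21 for *Kcnh2*, the rapid delayed rectifier ERG. *Kcnk3*, the acid-sensitive background channel TASK-1, led the two-pore-domain class with 4.08 and *Kcnn3* led the calcium-activated class with 1.38. *Kcnip2* and *Kcnj2* are neighbours in this order whose libraries overlap (4.93 to 18.1 and 6.81 to 13.8 CPM per kb). Between the Kv4 genes, *Kcnd2* averaged 1.28 CPM per kb and *Kcnd3* 0.124.

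**Figure D1:**
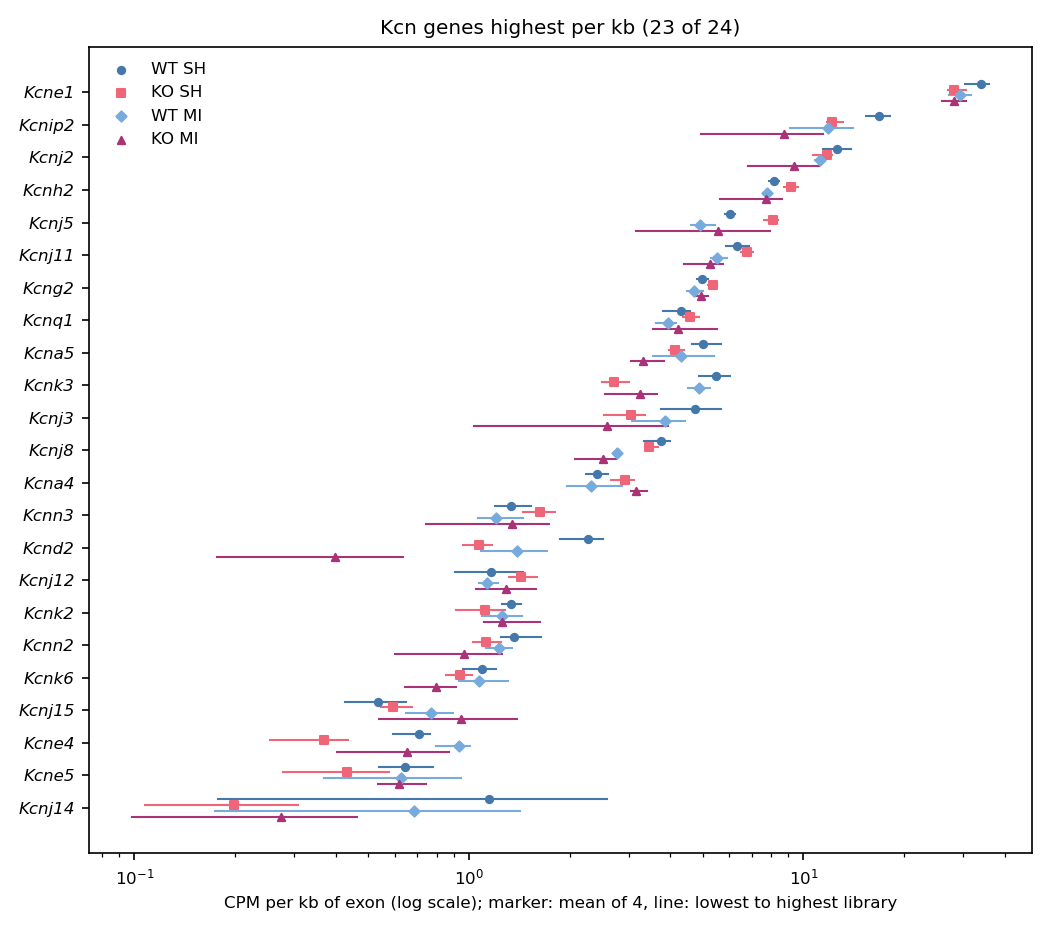
Levels of 23 of the 24 *Kcn* genes that were highest per kilobase, in CPM per kb of exon on a log axis, by group (marker, mean of 4 libraries; line, lowest to highest library). *Kcne1* lies at the top in every group, and the groups separate most clearly for *Kcnk3*, which is lower in both KO groups, and for *Kcnd2*, which is lowest in KO MI.

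All genes with at least 10 summed counts in each group were tested with edgeR's quasi-likelihood test, 20159 in all, with Benjamini-Hochberg adjustment over all of them. A call required an adjusted p below 0.1 together with a log2 fold change of 0.5 or more in size, in either direction. Of the 86 members, 62 passed this filter, and the other 24, with 13 to 137 counts over the 16 libraries, have no test. Because ventricles were sequenced in bulk, fewer cells of a type and less RNA per cell cannot be told apart in any of the comparisons.

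KO SH hearts differed from WT SH hearts in a few *Kcn* genes, most clearly in lower *Kcnk3*, *Kcnd2* and *Kcne4*. Of the 62 members tested, 5 (8.06%) were called, against 5.01% of all genes. 1 was higher (2.48% of all genes) and 4 were lower (2.53% of all genes). The median log2 fold change over the 62 was -0.11, beside 0.0053 over all genes tested. The voltage-gated alpha subunits gave 1 call of 24, the auxiliary subunits 1 of 11, the inward rectifiers 1 of 11, the two-pore-domain channels 1 of 7 and the calcium- and sodium-activated channels 1 of 9.

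After MI the *Kcn* genes called between KO and WT hearts were all lower in KO. In KO MI against WT MI, 4 of 62 members (6.45%) were called, against 1.73% of all genes. All 4 were lower (1.16% of all genes, with 0.57% called higher), namely *Kcnd2*, *Kcnd3*, *Kcnk3* and *Kcnc2*. The median over the 62 was -0.04, beside 0.0077 over all genes tested. *Kcnd2* and *Kcnk3* were called both in sham and in MI hearts, which is 40% of the 5 sham calls and 50% of the 4 MI calls, and these comparisons have no library in common.

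The promoters of the 4 transient outward current genes are shown first, since *Kcnd2* was lower and *Kcna4* higher in all KO libraries than in the WT libraries of the same operation. Each line gives the 250 bases before the start of transcription in RefSeq on GRCm38.p6, 5′ to 3′ on the gene's strand, and capitals mark a GC box (GGGCGG, either strand). *Kcnd2* is shown from chr6:21215096-21215345 (+), *Kcnd3* from chr3:105451640-105451889 (+), *Kcnip2* from chr19:45816064-45816313 (-) and *Kcna4* from chr2:107290339-107290588 (+).
Kcnd2: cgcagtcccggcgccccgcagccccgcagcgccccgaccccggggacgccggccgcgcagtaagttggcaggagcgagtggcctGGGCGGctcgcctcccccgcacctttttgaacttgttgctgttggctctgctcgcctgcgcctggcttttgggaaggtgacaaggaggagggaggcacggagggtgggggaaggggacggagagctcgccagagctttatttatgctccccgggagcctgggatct
Kcnd3: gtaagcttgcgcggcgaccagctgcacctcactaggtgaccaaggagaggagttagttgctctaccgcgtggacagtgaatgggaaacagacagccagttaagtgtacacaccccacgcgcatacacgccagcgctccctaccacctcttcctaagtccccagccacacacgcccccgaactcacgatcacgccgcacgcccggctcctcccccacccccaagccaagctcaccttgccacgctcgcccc
Kcnip2: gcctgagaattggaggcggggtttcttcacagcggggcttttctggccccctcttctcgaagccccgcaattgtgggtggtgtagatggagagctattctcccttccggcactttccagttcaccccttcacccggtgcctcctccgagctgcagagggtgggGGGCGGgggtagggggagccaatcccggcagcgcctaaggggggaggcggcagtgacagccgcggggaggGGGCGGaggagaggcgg
Kcna4: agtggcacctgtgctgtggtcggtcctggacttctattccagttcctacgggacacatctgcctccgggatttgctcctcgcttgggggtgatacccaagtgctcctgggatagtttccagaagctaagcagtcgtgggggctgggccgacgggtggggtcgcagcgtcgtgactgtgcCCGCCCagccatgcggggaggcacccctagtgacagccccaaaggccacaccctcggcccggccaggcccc

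These 4 promoters were rich in G and C (62.8% to 68.8%), beside medians of 58.4% for the promoters of members and 52.4% for all promoters. Those of *Kcnd2*, *Kcna4* and *Kcnip2* held a GC box. It occurred in 32.7% of the 32851 RefSeq promoters of the same length and in 42.5% of the 87 promoters of members. None of the 4 held the TATA box (searched as TATAAA), the site of GATA factors (searched as AGATAA), the cyclic AMP response element (searched as TGACGTCA), the MEF2 site or the Iroquois site (searched as ACANNTGT) on either strand, which occurred in 12.4%, 9.99%, 1.55%, 3.20% and 6.31% of all promoters. Among the members, 62 genes matched the RefSeq table.

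*Kcnd2*, which encodes Kv4.2 and spans chr6:21214866-21729804 on GRCm39, was lower in KO than in WT after either operation with its lowest levels in KO MI. It stood at 14.5, 14.1, 13.1 and 10.9 CPM in WT SH, 6.60, 6.81, 5.57 and 5.77 in KO SH, 8.49, 6.31, 7.44 and 9.88 in WT MI and 3.68, 1.02, 2.27 and 2.22 in KO MI. No KO library reached the lowest WT library of the same operation, and all KO MI libraries lay below all KO SH libraries. *Kcnd2* fell in KO SH to 0.471 of its level in WT SH (log2 fold change -1.09, SE 0.22, edgeR adjusted p = 0.00596) and in KO MI to 0.286 of its level in WT MI (log2 fold change -1.80, SE 0.23, edgeR adjusted p = 0.000414). It was called when any 1 library was left out, with log2 fold changes of -1.17 to -1.03 in sham and -2.14 to -1.55 in MI hearts. Leaving out KO MI replicates 2 and 7 together, chosen after seeing the data, gave -1.44 in MI hearts.

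The KO difference of *Kcnd2* in MI hearts minus that in sham hearts was -0.72 on the log2 scale (SE 0.32, 95% interval -1.34 to -0.09), which did not pass the edgeR test of the interaction (adjusted p = 0.332). The 6 cardiomyocyte markers summed to 25676 to 36040 CPM in WT SH and 25064 to 25951 CPM in KO SH, and to 23987 to 25623 CPM in WT MI and 22699 to 25310 CPM in KO MI, and none of the 6 was called in either KO comparison. Their median log2 fold change was -0.24 in sham and -0.09 in MI hearts.

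*Kcnd3*, which encodes Kv4.3, and *Kcnip2*, which encodes the KChIP2 subunit that Kv4 channels need at the membrane, had lower values in KO as well. *Kcnd3* stood at 1.73, 1.98, 1.63 and 1.499 CPM in WT SH, 1.35, 1.24, 1.29 and 1.31 in KO SH, 1.26, 1.36, 1.102 and 1.11 in WT MI and 0.529, 0.492, 1.02 and 0.856 in KO MI. It fell in KO MI (log2 fold change -0.74, SE 0.20, edgeR adjusted p = 0.0800) and every KO SH library lay below every WT SH library without a call (log2 fold change -0.39, SE 0.19, edgeR adjusted p = 0.236). The KO MI call was lost in 6 of 8 fits that left out 1 library of those groups, among them the one without KO MI replicate 2 (log2 fold change -0.59).

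*Kcnip2* stood at 72.7, 65.7, 70.5 and 61.7 CPM in WT SH, 47.1, 47.2, 48.5 and 52.5 in KO SH, 56.3, 36.6, 43.6 and 53.6 in WT MI and 45.7, 19.8, 42.5 and 32.6 in KO MI. All KO SH libraries lay under all WT SH libraries, while the MI groups overlapped, and KO MI replicate 2 was the lowest of the 16. *Kcnip2* was not called, with a log2 fold change of -0.47 (SE 0.18, edgeR adjusted p = 0.123) in sham and -0.44 (SE 0.18, adjusted p = 0.307) in MI hearts.

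*Kcna4*, which encodes Kv1.4 of the slowly recovering transient outward current, had higher values in KO. It stood at 13.5, 11.98, 13.0 and 11.6 CPM in WT SH, 15.8, 13.8, 14.7 and 16.2 in KO SH, 10.2, 14.9, 11.9 and 11.0 in WT MI and 15.9, 17.6, 15.8 and 16.4 in KO MI. The KO libraries were all above the WT libraries of the same operation. Its log2 fold change passed an adjusted p of 0.1 but not the minimum fold change, with 0.27 in sham (SE 0.10, edgeR adjusted p = 0.0984) and 0.45 in MI hearts (SE 0.10, adjusted p = 0.0186). The sham value missed 0.1 in all 8 fits that left out 1 library (edgeR adjusted p 0.101 to 0.232) and with a term for sex (0.188). In MI hearts 0.1 was passed in all 8 such fits. Within a library, the ratio of *Kcna4* to *Kcnd2* in CPM per kb was 1.07 ± 0.104 (SD, n = 4) in WT SH, 2.75 ± 0.375 in KO SH, 1.75 ± 0.639 in WT MI and 10.01 ± 6.32 in KO MI. In KO MI it ran from 4.81 to 19.2, the highest in replicate 2, and no KO MI library overlapped any other group.

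**Figure D2:**
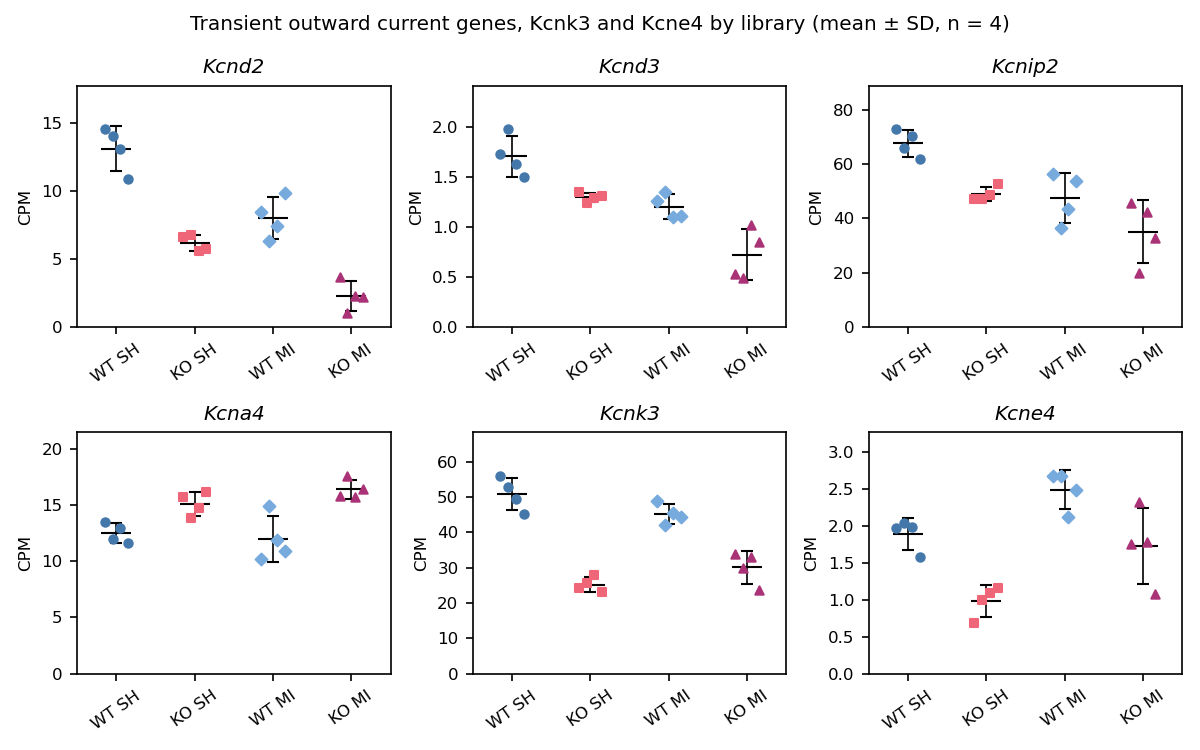
CPM of the transient outward current genes *Kcnd2*, *Kcnd3*, *Kcnip2* and *Kcna4* and of *Kcnk3* and *Kcne4* in each of the 16 libraries (points), with the mean and SD of each group of 4. *Kcnd2* is lowest in KO MI at 1.02 to 3.68 CPM, and *Kcnk3* lies at 23.1 to 33.8 CPM in all 8 KO libraries and at 42.0 to 56.0 CPM in all 8 WT libraries.

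*Kcnk3*, at chr5:30745243-30783689 on GRCm39, was the *Kcn* gene with the lowest adjusted p of any in sham hearts. It stood at 56.0, 52.8, 49.5 and 45.2 CPM in WT SH, 24.2, 25.5, 27.9 and 23.1 in KO SH, 48.8, 42.0, 45.4 and 44.3 in WT MI and 33.8, 29.8, 33.1 and 23.7 in KO MI. All 8 KO libraries were below all 8 WT libraries. *Kcnk3* fell to 0.495 of WT in KO SH (log2 fold change -1.02, SE 0.10, edgeR adjusted p = 6.75e-06) and to 0.668 of WT in KO MI (log2 fold change -0.58, SE 0.10, edgeR adjusted p = 0.00311). The KO MI value lost the call by size without KO MI replicate 7 (log2 fold change -0.49), the KO MI library with the lowest level. The call was lost as well without KO MI replicates 2 and 7 together (log2 fold change -0.44), a fit chosen after seeing the data.

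The KO difference of *Kcnk3* in MI hearts minus that in sham hearts was 0.43 (SE 0.14, 95% interval 0.17 to 0.70), without passing the edgeR interaction test (adjusted p = 0.209). Without KO MI replicate 7, *Kcnk3* and *Kcnc2* were called in that test, as were 840 genes in all. The two-pore-domain class, in which *Kcnk3* holds most of the counts, summed to 63.6 ± 4.66 CPM in WT SH, 36.2 ± 2.76 in KO SH, 57.4 ± 2.24 in WT MI and 41.3 ± 5.38 in KO MI (SD, n = 4). *Kcnk2*, which encodes the stretch-activated TREK-1, was not called in any comparison and had 6.70 ± 0.463 CPM in WT SH and 5.61 ± 0.780 CPM in KO SH.

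*Kcne4*, an auxiliary subunit that lowers the current of several voltage-gated channels, was called lower in sham KO hearts. It stood at 1.961, 2.03, 1.97 and 1.57 CPM in WT SH, 0.676, 0.999, 1.08 and 1.15 in KO SH, 2.67, 2.67, 2.11 and 2.48 in WT MI and 1.75, 2.32, 1.77 and 1.07 in KO MI. All KO SH libraries were below all WT SH libraries, whereas KO MI and WT MI overlapped. *Kcne4* fell in KO SH (log2 fold change -0.95, SE 0.21, edgeR adjusted p = 0.0114) and rose in KO MI against KO SH (log2 fold change 0.83, SE 0.21, edgeR adjusted p = 0.0163), and both calls were kept when any 1 library was left out. In KO MI against WT MI it was not called (log2 fold change -0.51, SE 0.19, edgeR adjusted p = 0.244). The 7 smooth muscle and pericyte markers summed to 805 to 908 CPM in WT SH and 705 to 763 CPM in KO SH, with 1 of 7 called lower. *Rgs5* and *Acta2* held most of this sum, and the median log2 fold change of the 7 was -0.04. *Myh11* was not lower, at 16.2 to 26.7 CPM in WT SH and 24.2 to 29.6 CPM in KO SH. The 5 endothelial markers summed to 797 to 824 CPM in WT SH and 732 to 768 CPM in KO SH, with 0 called. The part of these cells in the values of *Kcne4* and *Kcnk3* was not tested.

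The other 2 sham calls were of low or uneven genes. *Kcnj14*, which encodes Kir2.4, had 4.23, 0.749, 7.04 and 0.484 CPM in WT SH and 0.586, 0.837, 0.292 and 0.446 in KO SH. WT SH replicates 1 and 3 were high and WT SH replicates 2 and 4 lay within the KO SH range, so that the fall (log2 fold change -2.54, SE 0.79, edgeR adjusted p = 0.0583) rested on WT SH replicates 1 and 3, and it was lost without either. The same call was lost in 3 other fits with 1 library left out. WT MI was uneven too, at 0.505, 0.473, 2.61 and 3.87 CPM, while KO MI had 0.895, 1.26, 0.559 and 0.268 CPM of *Kcnj14*. *Kcnt1*, a sodium-activated channel, had 0.115, 0.134, 0.0858 and 0.266 CPM in WT SH and 0.428, 0.324, 0.334 and 0.367 in KO SH. Its KO SH libraries were all higher (log2 fold change 1.25, SE 0.43, edgeR adjusted p = 0.0837), and the call was lost in 7 of 8 fits with 1 library left out. *Kcnc2*, which encodes Kv3.2 of fast-spiking neurons, was called in MI hearts (log2 fold change -0.83, SE 0.23, edgeR adjusted p = 0.0844) at 0.689 to 0.877 CPM in WT MI and 0.308 to 0.535 CPM in KO MI, and was lost in 7 of 8 such fits. Its groups did not overlap.

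The delayed rectifiers and inward rectifiers of the working myocardium gave no call between KO and WT. *Kcne1* had 128 ± 8.95 CPM in WT SH and 107 ± 6.46 CPM in KO SH (SD, n = 4), a log2 fold change of -0.26 under the minimum (edgeR adjusted p = 0.0232). Its partner *Kcnq1* had 22.1 ± 1.79 and 23.4 ± 1.15 CPM. For *Kcnh2* the log2 fold change was 0.16 in sham and -0.01 in MI hearts, with 95% intervals of -0.02 to 0.35 and -0.20 to 0.17. *Kcna5*, which encodes the ultrarapid delayed rectifier Kv1.5, was at -0.27 in sham (edgeR adjusted p = 0.137) and -0.37 in MI hearts (adjusted p = 0.101).

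Among the inward rectifiers, *Kcnj2* and *Kcnj12*, which carry the resting current, had sham log2 fold changes of -0.10 (95% interval -0.30 to 0.11) and 0.30 (0.03 to 0.56). *Kcnj11* and *Kcnj8*, the pores of the ATP-sensitive channels, had 0.09 (-0.06 to 0.25) and -0.12 (-0.28 to 0.04). The subunits of the acetylcholine-activated channel had values of opposite sign in sham hearts. *Kcnj5* stood at 45.7, 48.5, 48.8 and 46.4 CPM in WT SH, 65.6, 59.7, 62.9 and 65.7 in KO SH, 36.3, 36.0, 42.5 and 39.3 in WT MI and 46.7, 24.8, 40.3 and 62.1 in KO MI. *Kcnj3* stood at 29.5, 32.1, 21.3 and 24.5 CPM in WT SH, 18.6, 19.0, 14.4 and 17.2 in KO SH, 22.7, 17.4, 22.0 and 25.0 in WT MI and 18.4, 5.89, 22.3 and 12.1 in KO MI. In sham hearts all KO libraries lay above all WT libraries for *Kcnj5* (log2 fold change 0.42, SE 0.17, edgeR adjusted p = 0.132) and below them for *Kcnj3* (log2 fold change -0.64, SE 0.26, edgeR adjusted p = 0.147), and neither was called. With a term for sex *Kcnj5* was called in this comparison, and with only the 2 sham groups in the fit *Kcnj3* was. *Kcnj5* is on a list that the study drew from these same libraries, so its direction is not independent of that choice.

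Across all 62 members tested, 42 (67.7%) had the same sign of the KO difference in sham and in MI hearts, beside 54.2% of all genes tested, and Pearson's r across the 62 genes was 0.47, beside 0.33 across all genes. These comparisons share no library, and genes are not independent replicates. The test of the difference between the KO effects called 0 of 62 members, against 0.0248% of all genes (5 genes), with 7 members at an unadjusted p under 0.05, and DESeq2 called 0 members, with no adjusted p for 34 of them.

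**Figure D3:**
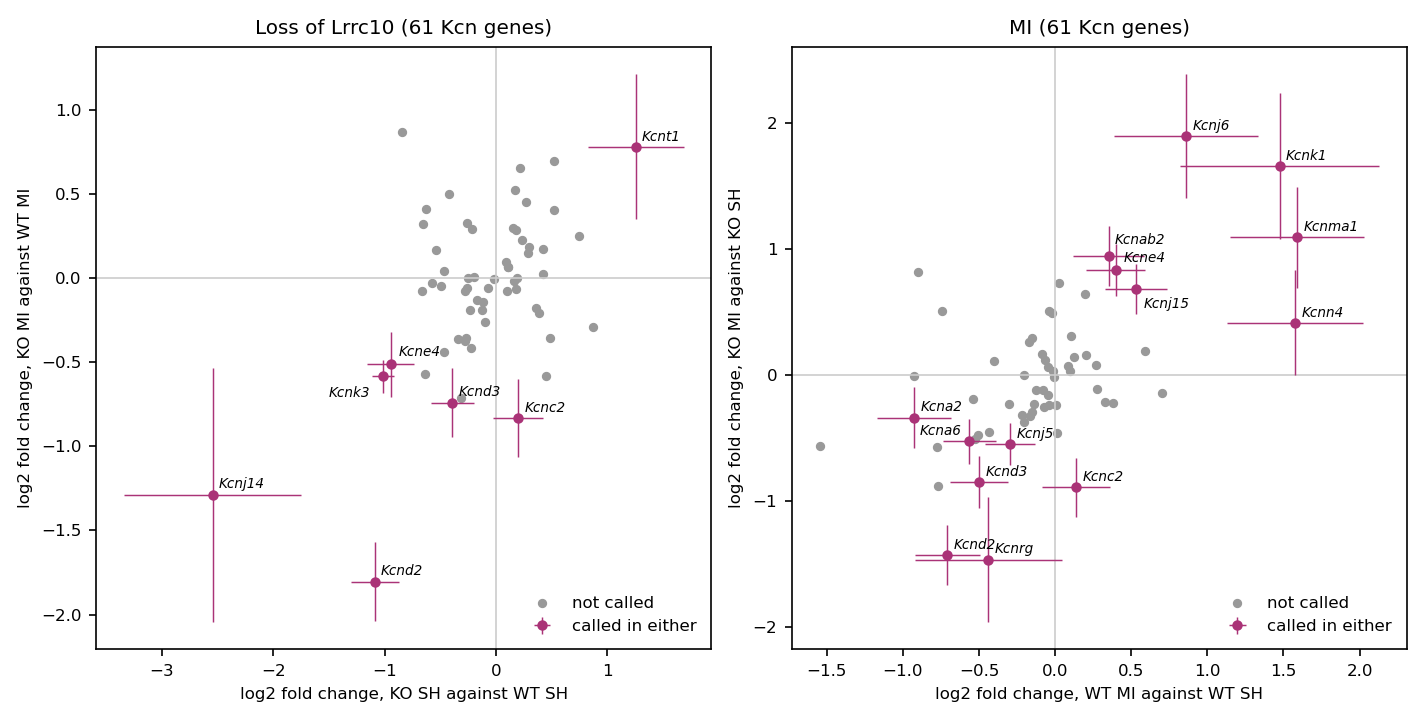
Log2 fold changes (±SE for called genes) of 61 of the 62 tested *Kcn* genes, KO against WT in sham (x) and MI hearts (y) on the left, and MI against sham in WT (x) and KO hearts (y) on the right. Purple points were called on either axis, and *Kcnd2* and *Kcnk3* are called on both axes on the left, and *Kcnd2*, *Kcna6* and *Kcnma1* on both on the right.

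After MI, *Kcnma1* and *Kcnn4* were higher and *Kcna2*, *Kcna6* and *Kcnd2* lower in WT hearts. In WT MI against WT SH, 5 of 62 members (8.06%) were called, against 2.78% of all genes. 2 were higher (2.13% of all genes) and 3 were lower (0.645% of all genes), and the median over the 62 was -0.07, beside -0.0043 over all genes tested. *Kcnma1*, the large-conductance calcium-activated channel, rose (log2 fold change 1.59, SE 0.44, edgeR adjusted p = 0.0580) and so did *Kcnn4*, the intermediate-conductance channel of blood cells (log2 fold change 1.58, SE 0.45, edgeR adjusted p = 0.0642). *Kcna2* (log2 fold change -0.93, SE 0.24, edgeR adjusted p = 0.0473), *Kcna6* (log2 fold change -0.56, SE 0.18, edgeR adjusted p = 0.0954) and *Kcnd2* (log2 fold change -0.71, SE 0.21, edgeR adjusted p = 0.0826) fell. Without WT SH replicate 1 or without WT MI replicate 2, edgeR called 0 of the members tested (17 at an unadjusted p under 0.05 in either fit), and with a term for sex it called 2.

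*Kcnma1* stood at 0.135, 0.267, 0.0572 and 0.145 CPM in WT SH, 0.248, 0.243, 0.292 and 0.236 in KO SH, 0.526, 0.560, 0.450 and 0.304 in WT MI and 0.651, 0.669, 0.173 and 0.722 in KO MI, under 1 CPM throughout. All WT MI libraries were above all WT SH libraries. KO MI replicate 3 lay within the WT SH range and below all KO SH libraries. The call of *Kcnma1* in KO MI against KO SH (log2 fold change 1.09) was lost in 7 of 8 fits with 1 library left out. *Kcnn4* stood at 0.154, 0.160, 0.0286 and 0.218 CPM in WT SH, 0.271, 0.459, 0.209 and 0.131 in KO SH, 0.526, 0.344, 0.450 and 0.413 in WT MI and 0.203, 0.276, 0.540 and 0.401 in KO MI. Its WT groups did not overlap and its KO groups did. The 5 macrophage markers summed to 23.6 to 25.9 CPM in WT SH and 30.5 to 44.7 CPM in WT MI, with 1 of 5 called higher, and their part in these values was not tested.

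After MI in KO hearts, 5 of 24 voltage-gated alpha subunits, *Kcnd2* among them, were called lower, and 6 *Kcn* genes, most of them at low levels, were called higher. In KO MI against KO SH, 13 of 62 members (21%) were called, against 7.42% of all genes. 6 were higher (5.31% of all genes) and 7 were lower (2.11% of all genes), and the median over the 62 was -0.12, beside -0.010 over all genes tested. The alpha subunits called lower included *Kcnd2*, *Kcnd3*, *Kcnc2* and *Kcna6*, and none of the 24 was called higher. *Kcnj5* and *Kcnrg* fell too, and *Kcne4*, *Kcnab2*, *Kcnj15*, *Kcnj6*, *Kcnk1* and *Kcnma1* rose. *Kcnab2*, *Kcnj6*, *Kcnk1* and *Kcnrg*, with means under 1 CPM, are outside the rule for naming genes and are named here after their values were seen.

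*Kcnd2* fell in KO hearts after MI (log2 fold change -1.43, SE 0.24, edgeR adjusted p = 0.00181), as did *Kcnd3* (log2 fold change -0.85, SE 0.21, edgeR adjusted p = 0.0138) and *Kcnc2* (log2 fold change -0.89, SE 0.23, edgeR adjusted p = 0.0205), in all 3 cases without overlap between KO MI and KO SH. These 3 calls, and those of *Kcne4*, *Kcnab2* and *Kcnj6*, held when any 1 library was left out. Without KO MI replicate 2 the count was 8, and *Kcnj5* and *Kcnj15* were among those lost. The values of *Kcnip2* in this comparison were at the threshold and under the minimum fold change (log2 fold change -0.47, SE 0.18, edgeR adjusted p = 0.09997).

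The ATP-sensitive channel genes had lower values after MI in both genotypes, none past the minimum fold change. *Kcnj8* stood at 14.995, 15.1, 13.8 and 12.6 CPM in WT SH, 12.7, 12.7, 12.8 and 13.8 in KO SH, 10.6, 10.3, 10.5 and 10.4 in WT MI and 10.1, 7.80, 9.71 and 10.4 in KO MI. All MI libraries lay below all sham libraries. Its log2 fold change was -0.43 in WT (SE 0.08, edgeR adjusted p = 0.00880) and -0.45 in KO hearts (SE 0.08, adjusted p = 0.00282). *Kcnj11* was at -0.20 in WT (edgeR adjusted p = 0.181) and -0.37 in KO hearts (adjusted p = 0.00625). *Abcc9*, which encodes the sulfonylurea receptor that pairs with them in muscle, was at -0.48 in KO hearts (adjusted p = 0.00300). Among the 7 smooth muscle and pericyte markers, *Rgs5* had 308 to 410 CPM in all MI and 428 to 490 CPM in all sham libraries. *Pdgfrb* had 51.6 to 56.05 CPM and 56.12 to 65.0 CPM. The median log2 fold change of the 7 after MI was 0.12 in WT and 0.18 in KO hearts. The part of these cells in the values of *Kcnj8* was not tested.

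*Kcnj15*, which encodes Kir4.2, stood at 3.36, 4.22, 2.77 and 3.51 CPM in WT SH, 3.56, 3.78, 3.65 and 4.41 in KO SH, 5.23, 4.73, 5.85 and 4.21 in WT MI and 6.02, 9.04, 6.01 and 3.51 in KO MI. KO MI replicate 2 was the highest and KO MI replicate 7 lay below all KO SH libraries. It rose in KO hearts after MI (log2 fold change 0.68, SE 0.20, edgeR adjusted p = 0.0361), with a log2 fold change of 0.44 and no call without KO MI replicate 2. The other members that rose after MI in KO hearts were low, with 0.976 to 1.56 CPM in KO MI for *Kcnab2*, a cytoplasmic beta subunit, 0.161 to 1.02 for *Kcnj6* and 0.134 to 0.551 for *Kcnk1*. The 5 macrophage markers summed to 21.6 to 25.0 CPM in KO SH and 27.0 to 57.5 CPM in KO MI, and 4 of 5 were called higher. The 5 atrial markers summed to 45.6 to 124 CPM in KO SH and 159 to 2428 CPM in KO MI. Most of this was *Nppa*, at 43.2 to 112 CPM in KO SH and 150 to 2396 CPM in KO MI. Called higher as well were 4 of 4 erythroid, 4 of 4 skeletal muscle, 3 of 7 smooth muscle and pericyte and 2 of 5 fibroblast markers (5.31% of all genes). Called lower were 1 of 6 cardiomyocyte markers and 1 of 4 Schwann cell and neuron markers (2.11% of all genes). The smooth muscle and pericyte list was mixed. *Rgs5* was lower without overlap, at 428 to 445 CPM in KO SH and 308 to 409 CPM in KO MI. So was *Pdgfrb*, at 56.1 to 65.0 CPM in KO SH and 51.6 to 55.1 CPM in KO MI. The part of these cells in the *Kcn* values was not tested.

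**Figure D4:**
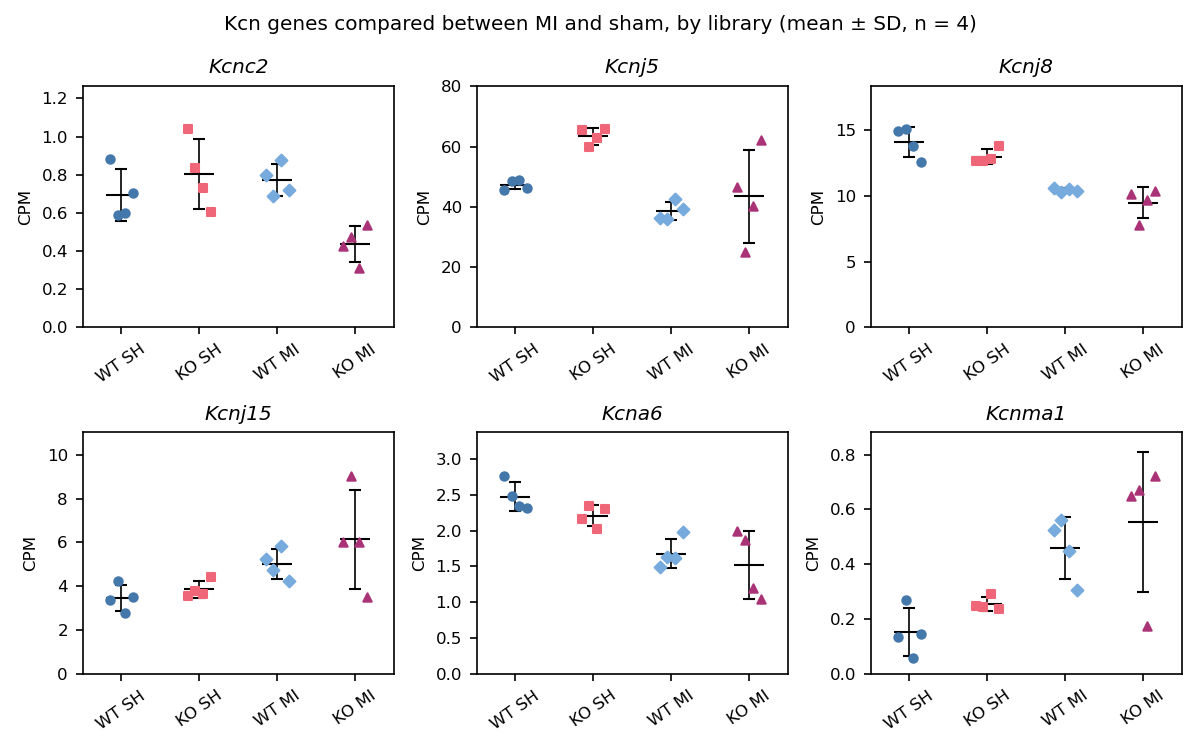
CPM of 6 *Kcn* genes in each of the 16 libraries (points), with the mean and SD of each group of 4. *Kcnj8* lies lower in all MI libraries than in all sham libraries, and KO MI replicate 2 is the lowest library for *Kcnj5* and *Kcnj8* (24.8 and 7.80 CPM).

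Over the 20 genes of cardiac repolarization, 19 were tested and *Kcne2*, at 0 to 0.163 CPM, was not. The 19 gave 2 calls in KO SH against WT SH, 3 in KO MI against WT MI, 2 in WT MI against WT SH and 5 in KO MI against KO SH (5.01%, 1.73%, 2.78% and 7.42% of all genes), with medians of -0.12, -0.14, -0.20 and -0.25. After MI, 18 of the 19 had a negative log2 fold change in WT hearts and 14 in KO hearts, of which 1 and 4 were called lower (0.645% and 2.11% of all genes). Of the 20159 genes tested, 10271 had a negative value in WT and 10472 in KO hearts. The 6 cardiomyocyte markers had median log2 fold changes after MI of -0.34 in WT and -0.14 in KO hearts. The part of cardiomyocytes in the values of the 19 was not tested.

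The small-conductance calcium-activated channels *Kcnn2* and *Kcnn3* had no call, with 15.4 ± 2.12 and 13.99 ± 1.72 CPM (SD, n = 4) in WT SH and sham log2 fold changes of -0.27 (95% interval -0.57 to 0.03) and 0.29 (-0.06 to 0.64). Over the 4 pairwise comparisons, 18 of the 62 members (29%) were called at least once, against 12.8% of all genes tested, and 44 were not. Of these 44, 27 averaged at least 1 CPM, and their log2 fold changes ran from -0.64 for *Kcnj3* in sham hearts to 0.45 for *Kcna4* in MI hearts.

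Of 24 partners of the channels (regulators, scaffolds and the pacemaker *Hcn* genes), 19 were tested. *Hcn4*, the pacemaker channel of the conduction system, rose in KO SH (log2 fold change 0.58, SE 0.12, edgeR adjusted p = 0.00676), from 4.59, 5.67, 3.92 and 5.25 CPM in WT SH to 7.51, 7.13, 6.78 and 7.61 CPM in KO SH. *Irx3*, an Iroquois factor of the conduction system, rose as well (log2 fold change 0.58, SE 0.14, edgeR adjusted p = 0.0164), and neither pair of groups overlapped. No partner was called in KO MI against WT MI, where *Hcn4* was at 0.47 (adjusted p = 0.0484), or in WT MI against WT SH. In KO MI against KO SH, *Hcn2* (log2 fold change -0.78, SE 0.17, edgeR adjusted p = 0.00815) and *Lrrc55* (log2 fold change -0.56, SE 0.16, edgeR adjusted p = 0.0309) fell and 1 other partner was called higher, 3 of 19 against 7.42% of all genes. *Irx5*, a repressor of *Kcnd2* in the ventricular wall of the mouse, had a sham log2 fold change of 0.40 (SE 0.12, edgeR adjusted p = 0.0540). In MI hearts it was at 0.43 (SE 0.12, edgeR adjusted p = 0.0873). Both values passed 0.1 but not the minimum fold change, so *Irx5* was not called. It had 4.64 to 6.06 CPM in WT SH, 6.32 to 7.03 in KO SH, 3.84 to 6.31 in WT MI and 6.78 to 6.83 in KO MI. Its part in the values of *Kcnd2* was not tested.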

How the data were processed

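Per the labels, total RNA of whole ventricles was made into stranded libraries. The authors deposited a table of RSEM expected counts per gene on GRCm39, not normalized and holding whole numbers, and the annotation release is not given in the sources used here. The methods name Skewer, STAR and RSEM, while the submitters' processing notes name cutadapt (version 3.4), HISAT2 (version 2.2.1) and RSEM (version 1.1.17), so the aligner behind the table is unsettled. RSEM shares reads among similar genes, so values of paralogs carry an error that the table does not give. Most named genes overlap another annotated gene. An overlap on the same strand with a gene in the table was found only for *Kcnd2*, *Kcnd3*, *Kcnk2* and *Kcnq1* among them.

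Gene names, positions and exon lengths came from GENCODE release M39, which matched 47772 of 51912 identifiers. Expected counts were rounded, scaled by TMM and fitted with edgeR (version 4.0.16, under R version 4.3.3), all 16 libraries in 1 fit and 1 coefficient per group, by the quasi-likelihood test with Benjamini-Hochberg adjustment over the 20159 genes tested. SE is the log2 fold change divided by the root of its F statistic, and 95% intervals are 1.96 SE wide on each side. The thresholds (adjusted p under 0.1, absolute log2 fold change of at least 0.5) follow the study's methods. The fit was tested on simulated data.

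Libraries held 33783874 to 57470159 counts. Floors cover counting error only. Intervals cover only the spread between libraries within groups, pooled over the 4 groups and moderated across genes, so they do not give the spread of any 1 group. Named genes were members called in a comparison (of more than 12 calls, at most 12 with a mean of at least 1 CPM), a list of 20 genes of cardiac repolarization, and the gene highest per kb in each class. The members and lists were chosen with earlier results of these data known. Alternatives were DESeq2 (version 1.42.0), its size factors, other filters and thresholds, only the groups compared, a replicate block, a term for sex, removal of mitochondrial genes, and leaving out libraries. Some results are not reported here.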

Additional observations from a re-analysis of the deposited data

Results flagged for a closer look

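In 6 of 116 groups of 4 libraries of the named genes, 1 library lay far from the other 3 in CPM, and chance flags about 1 in 20. *Kcne4* was low in WT SH replicate 4 at 1.57 CPM, with the next library at 1.961. *Kcnj2* was low in KO SH replicate 4 at 58.6 CPM, with the next at 66.0, and *Kcnj8* was high in the same library at 13.8 CPM, with the next at 12.8. *Kcnk2* was high in KO MI replicate 2 at 8.15 CPM, with the next at 5.90. *Kcnma1* was low in KO MI replicate 3 at 0.173 CPM, with the next at 0.651. *Kcnn2* was high in WT SH replicate 2 at 18.5 CPM, with the next at 14.5.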

How the results depend on the processing

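The values with an adjusted p under 0.1 in the main fit were followed over the alternative settings. Of 708 such values, none changed sign, 579 kept their side of the threshold, 114 lost it and 15 gained it. Settings that changed only a threshold reused the main fit, so their sign could not change. Dropping the minimum fold change turned the values under it into calls by definition. In KO SH against WT SH, 3 *Kcn* genes were called at an adjusted p under 0.05, and 3 to 5 with 1 library left out, the 3 without WT SH replicate 1 or 3 or KO SH replicate 1 or 4. In KO MI against WT MI, 2 were called at an adjusted p under 0.05, *Kcnd2* and *Kcnk3*. The same 2 were called with only the groups compared in the fit. Without KO MI replicates 2 and 7 (chosen after seeing the data) 2 were called, *Kcnd2* and *Kcnc2*. With 1 library left out 2 to 4 were called. The 2 came without WT MI replicate 1, 3 or 4 or KO MI replicate 1 or 2 (*Kcnd2* and *Kcnk3* in each). In WT MI against WT SH, 1 was called at an adjusted p under 0.05, 2 with a term for sex, and 0 to 4 with 1 library left out, with 3 or fewer in every such fit but the one without WT SH replicate 4. In KO MI against KO SH, 8 were called with only the groups compared, 20 with no minimum fold change, and 8 to 13 with 1 library left out, the 8 without KO MI replicate 2. For the interaction, 2 were called without KO MI replicates 2 and 7, and 0 to 2 with 1 library left out, the 2 without KO MI replicate 7. The median of all genes in WT MI against WT SH, -0.0043, was 0.00486 without the filter on groups and 0.00255 with only the groups compared. DESeq2 also called *Kcnab2* in sham and *Kcna1* in WT MI against WT SH, and with only the groups compared *Kcnip2* and *Kcnj15* were called in WT MI against WT SH. The causes were not tested.

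With a replicate block, in which KO MI replicate 7 had a term of its own and so dropped out, the interaction called 1 member, *Kcnc2*, and 689 genes in all against 5, and the other comparisons called 6, 5, 7 and 13. The numbers are not stated to pair the mice, and same-numbered libraries had correlations of -0.066 to 0.111 over 21 pairs, with 1 above 0.1. Without the filter on groups, *Kcnq3* was also called in WT MI against WT SH, and *Kcnq3*, *Kcnc1* and *Kcng4* in KO MI against KO SH, all named after their values were seen. At these depths a gene under 0.0577 to 0.0858 CPM is not told from absence.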
